A study of Drosophila melanogaster with 9 samples.

Results

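Chromosome 4 of Drosophila melanogaster is the smallest autosome, and the regions described here are all those that 5 deposited lists of replication start sites place on it. The rule was position alone. It gave 106 of the 8212 origins in the Bg3 list, 43 of the 7268 in the S2 list, and 56 of 4505, 59 of 6448 and 59 of 5814 regions in the lists for S2 size fractions 4, 5 and 6, or 323 of 32247 entries in all. The same place can be listed more than once, and entries that overlapped across lists joined into 146 separate loci.

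Origins had been mapped by sequencing short nascent strands, the newest stretches of leading strand, which still carry an RNA primer. Bg3 (ML-DmBG3-c2) is a neural line derived from larval brain and nerve cord. S2 (S2-DRSC) is an embryonic line with haemocyte-like features. Per the labels, each line had 2 biological replicates prepared from pooled gradient fractions with fragments of 0.5 to 2.5 kb, untreated and grown under standard culture. Fraction 4 (short strands), fraction 5 (middle-sized) and fraction 6 (long) came from S2 cells only. The design text names 2 libraries for each of them, which are given as 1 sample and 1 list. All preparations were digested with lambda exonuclease, which spares RNA-primed DNA. Each list was a single pooled set with no column per replicate, so no difference below was set against a spread between cultures.

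The chromosome is known as the dot chromosome. Its genes lie among repeats in chromatin that carries heterochromatin protein 1a and the chromosome-specific protein POF, yet many of them are active, and it rarely recombines in meiosis. In flies an origin is a place where the origin recognition complex loads the replicative helicase. No fixed sequence motif is known to define one, and heterochromatin generally replicates late in S phase.

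Coordinates are those of build dm3 as deposited. Gene annotation and sequence of that build were not used here, so no region is placed in a gene. Listed regions ran from 4874 to 1348413, and the last position was taken as the end of the chromosome, which made it 1.12% of the length of the 6 arms compared (2L, 2R, 3L, 3R, X and 4). Strength is the authors' efficiency value, in reads per kb of the origin. It was given for Bg3 and S2 only and is on a different scale in each, so it was ranked within a list as a percentile among the origins of the 6 arms. Exact 95% intervals on shares cover counting error only, and neighbouring origins are not independent.

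By number per Mb, origins were denser on chromosome 4 in Bg3 and sparser in S2 than on the remaining arms together. In Bg3 there were 78.6 origins per Mb on chromosome 4, against 55.7 on the other 5 arms together and at most 71.8 on any 1 of them (3L). In S2 there were 31.9 per Mb on chromosome 4, against 53.9 on the other arms, where X had the lowest density (28.0). The size fractions gave 41.5, 43.8 and 43.8 regions per Mb on chromosome 4 in fractions 4, 5 and 6, against 29.5, 44.7 and 40.04 on the other arms. Regions covered 7.30% of chromosome 4 in Bg3 and 4.61% in S2, with 5.63%, 4.88% and 5.19% in fractions 4, 5 and 6. On the other arms they covered 3.99% in Bg3, 4.79% in S2 and 3.24%, 3.70% and 3.65% in the fractions. By coverage, S2 was thus close to the other arms.

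Relative to S2, Bg3 had more origins on chromosome 4 than on the other arms. With 106 Bg3 and 43 S2 origins, the ratio was 2.39 times that of the remaining arms (interval 1.66 to 3.49, adjusted p = 9.42e-07, two-sided exact binomial test over the 6 arms with Benjamini-Hochberg adjustment). Such calls were common at this level, since 3 of the 6 arms (50%) passed with more Bg3 origins and 2 (33.3%) with fewer. The test treats origins as independent, which they are not. DNA copy number of chromosome 4 in the lines was not measured here, so more origins and more detectable origins cannot be told apart.

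The size fractions, which came from S2 cells, also held more of their regions on chromosome 4 than the S2 pooled list did. Relative to S2 pooled origins and to the remaining arms, the ratio was 2.38 for fraction 4 (interval 1.57 to 3.62, adjusted p = 0.000121), 1.65 for fraction 5 (1.098 to 2.51, 0.0380) and 1.85 for fraction 6 (1.23 to 2.80, 0.00750), by the same exact binomial test. In fractions 4 and 5, 1 of 6 arms (16.7%) passed in that direction, which was chromosome 4, and in fraction 6 there were 2 (33.3%), chromosome 4 and X. All 4 comparisons share the S2 pooled list. Putting a size fraction in its place was tried after the data had been seen. The Bg3 ratio on chromosome 4 was then 1.01 against fraction 4 (0.720 to 1.42, adjusted p = 1, exact binomial test). It was 1.44 against fraction 5 (1.04 to 2.02, adjusted p = 0.0348), where 2 of 6 arms (33.3%) passed, and 1.29 against fraction 6 (0.931 to 1.81, adjusted p = 0.138), by the same exact test. The excess over S2 cells thus passed the test against the pooled list and fraction 5 and not against fractions 4 and 6. The fraction counts include 10, 9 and 13 regions beyond 1323870 that are described below. The Bg3 ratios to the fractions were not recomputed without them, so these outcomes may depend on those regions.

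**Figure D1:**
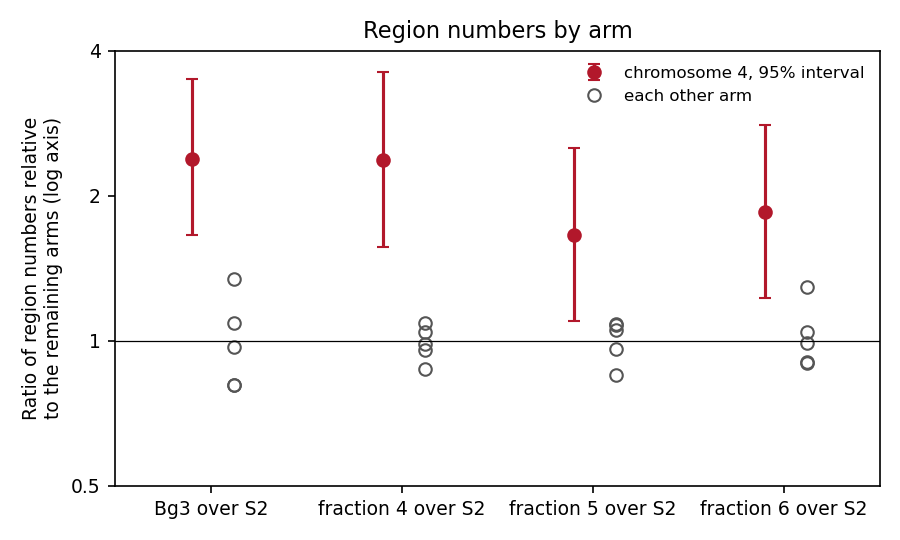
Ratio of region numbers on each arm relative to the remaining arms (log axis) for Bg3 and the 3 size fractions over the S2 pooled list. Filled points with bars are chromosome 4 with its exact 95% interval, at 2.39, 2.38, 1.65 and 1.85, and open points are the other 5 arms, which lie between 0.808 and 1.34 in all 4 comparisons.

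The Bg3 excess over S2 was spread along the chromosome. Bg3 had 43, 37 and 26 origins in the 3 successive 500 kb windows, against 14, 18 and 11 in S2. The first of these passed the exact binomial test over windows of all arms (adjusted p = 0.00593), and the other 2 did not (0.116 each). Across the 6 arms 16 of 243 tested windows (6.58%) passed with more Bg3 origins and 5 (2.06%) with fewer. At 250 kb 0 of 6 windows on chromosome 4 passed (lowest adjusted p = 0.0797, exact binomial test), and 4 of 468 on all arms (0.855%) did in each direction. Of the 14 windows of 100 kb, 11 held more Bg3 than S2 origins, 2 more S2 origins and 1 equal numbers, but 0 passed (exact binomial test, lowest adjusted p = 0.300), as did 0 of 1006 on all arms (0%), where 84 had an unadjusted p under 0.05.

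The fractions stood furthest above S2 at the right end. After 1 Mb they held 24, 24 and 26 regions in fractions 4, 5 and 6, against 11 in S2. Relative to S2 and to all 6 arms, the ratio there was 3.94, 2.62 and 3.16, and 2.27 for Bg3. That window passed for fraction 4 (adjusted p = 0.0181, exact binomial test), where 2 of 243 windows (0.823%) did, and not for fraction 5 (1) or fraction 6 (0.301). The densest 100 kb differed accordingly. It was the first 100 kb for Bg3 (13 origins), the stretch from 900001 for S2 (7) and the stretch from 1300001 for all 3 fractions (13, 13 and 17). Of the fraction regions after 1 Mb, 10, 9 and 13 lay beyond 1323870, where the last pooled origin ended. They form a repeated pattern described below and enter these counts. The window after 1 Mb was not retested without them.

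**Figure D2:**
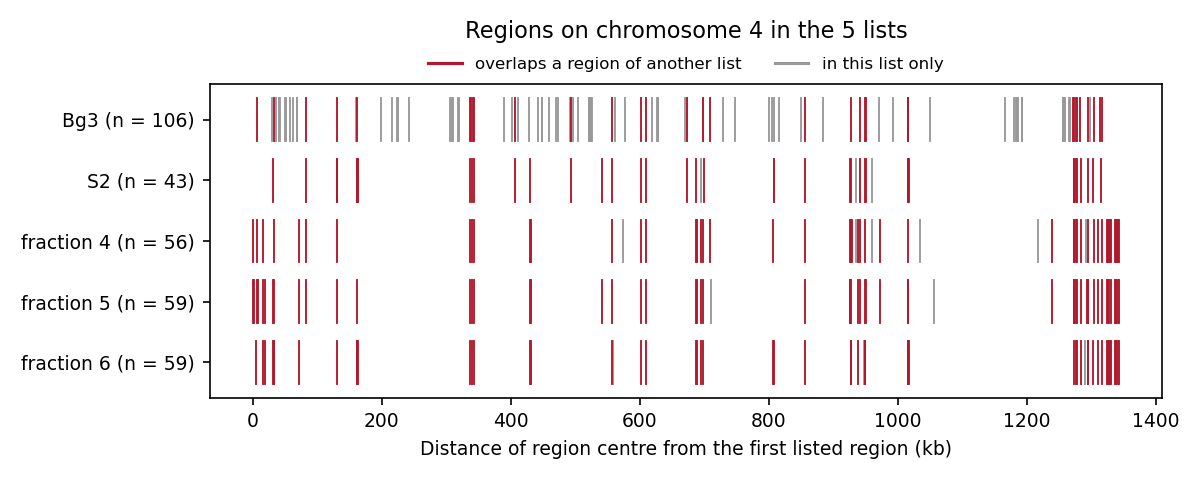
Each vertical tick is a listed region, placed by the distance of its centre from the first listed region (kb), with 1 row per list. Red ticks overlap a region of another list and grey ticks do not. Grey ticks are mostly in the Bg3 row, and the 3 fraction rows carry a dense block at the right end.

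Sharing between the lines ran opposite ways in the 2 directions. Of the 106 Bg3 origins, 31 (29.2%, interval 20.8 to 38.9) overlapped an S2 origin, against 42.3% on the other arms, where the lowest share was 31.1% on X. Of the 43 S2 origins, 32 (74.4%, 58.8 to 86.5) overlapped a Bg3 origin, against 41.3% on the other arms, where the highest share was 47.4% on 3L. Since 31 and 32 are almost the same number, the contrast restates how many origins each list had. The differences between arms in these shares were not tested.

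**Figure D3:**
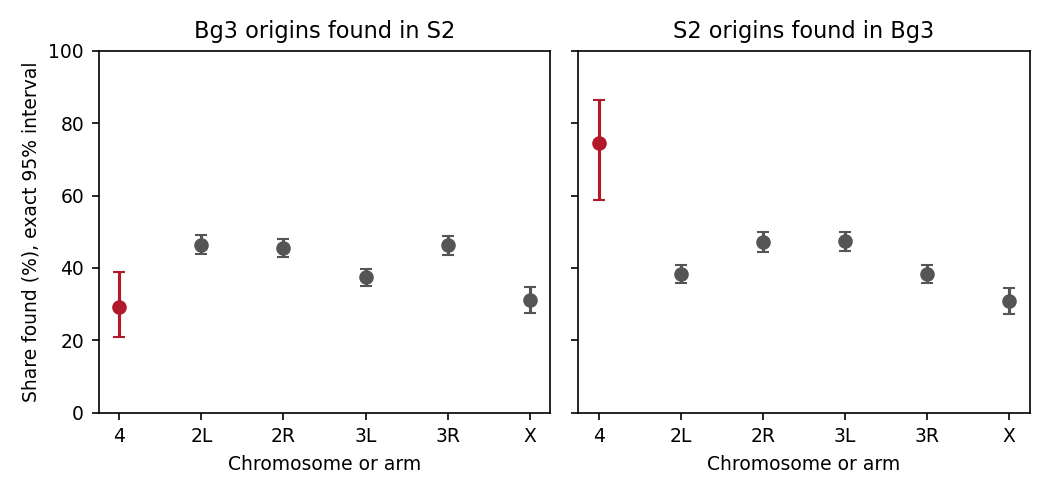
Share of origins found in the other line (%), by chromosome or arm, with exact 95% intervals. Chromosome 4 (red) is at 29.2% for Bg3 origins found in S2 and at 74.4% for S2 origins found in Bg3, while the 5 other arms lie between 30.8% and 47.4% across both panels.

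Few of the Bg3 origins missing from the S2 pooled list turned up in a size fraction. Of those 75, only 2 (2.67%, interval 0.325 to 9.30) overlapped a region in any fraction, against 19.6% of unshared Bg3 origins on the other arms. They lay at 11080 to 13282, in all 3 fractions, and at 713903 to 714238, the span of a locus held by Bg3 and fraction 4. In contrast, 28 of the 31 shared Bg3 origins (90.3%) were in a fraction, against 70.9% on the other arms. Of the 146 loci, 73 were held by Bg3 alone and 31 by fractions alone. Loci held by Bg3 alone were 50% of those on chromosome 4, against 19.6% (2L) to 33.5% (3L) on the other arms. Loci held by fractions alone were 21.2%, against 12.8% (3L) to 20.8% (2L) on the other arms. Of these 31 loci, 8 lay beyond the last pooled origin, in the repeated pattern described below.

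The 146 loci fell into few patterns. All 5 lists shared 20 loci (13.7%), whereas on the other arms such loci made up 7.50% to 9.26%. A further 8 loci were in 4 lists, 16 in 3, 13 in 2 and 89 in 1. The 89 were 73 from Bg3, 5 from S2, 6 from fraction 4, 2 from fraction 5 and 3 from fraction 6. Loci held by S2 alone were 3.42% on chromosome 4, against 14.5% (2R) to 18.4% (2L) on the other arms. The numbers of loci in 4, 3 and 2 lists and in single fractions were not set against the other arms. Bg3 and S2 without any fraction held 3 loci (2.05%, against 2.13% on X to 7.63% on 3L), at 410987 to 412083, 498157 to 498752 and 678489 to 679078. In the strongest of them, at 498157, strength was 3389 reads per kb in Bg3 and 1704 in S2. Another 6 loci (4.11%) were in S2 and a fraction but not in Bg3, a share that was not set against the other arms.

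The S2 origins on chromosome 4 were well covered by the fractions. At least 1 fraction held 35 of the 43 (81.4%, interval 66.6 to 91.6) and all 3 held 23 (53.5%, 37.7 to 68.8), against 56.0% and 26.6% on the other arms. Another list held 38 of the 43 (88.4%), against 67.9% on the other arms, and 5 overlapped none, the strongest of them at 812862 to 813179 with 1673 reads per kb. In the other direction, the S2 pooled list held 46.4% of fraction 4 regions (33.0 to 60.3), 57.6% of fraction 5 (44.1 to 70.4) and 54.2% of fraction 6 (40.8 to 67.3), against 64.9%, 63.7% and 60.1% on the other arms. These shares include 10, 9 and 13 regions beyond 1323870, past the last S2 origin, which could not overlap one. Before that point lay 46, 50 and 46 regions, of which 26, 34 and 32 overlapped an S2 origin. On that base only the fraction 4 share was below that of the other arms. The fractions overlapped each other more: 40 of 56 fraction 4 regions (71.4%), 42 of 59 of fraction 5 (71.2%) and 43 of 59 of fraction 6 (72.9%) were in both other fractions. The counts of overlap between fractions also include the 10, 9 and 13 regions beyond 1323870. Single fractions overlapped widely on the other arms too. Fraction 5 held 83.9% of fraction 4 and 79.7% of fraction 6 regions on chromosome 4, against 77.3% and 76.4% there. Fraction 4 held 84.7% of fraction 5 and 81.4% of fraction 6 regions, against 54.7% and 52.1%.

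The loci in all 5 lists included most of the strongest origins of the chromosome. Their best Bg3 origin had a median rank at the 96.7th percentile and their best S2 origin at the 96.4th, and 15 of the 20 were above the 90th percentile in each list. The ranks also ran low in some, with minima of 12.6 in Bg3 and 28.2 in S2. The strongest lay at 612187 to 616836, with 82269.9 reads per kb in Bg3, the 9th of 6728 origins, and 121163 in S2, the 8th of 6456. The next, at 703146 to 704700, had 71885.9 reads per kb in Bg3 (11th) and 100216 in S2 (10th). They were the 2 strongest origins of the chromosome in both lines.

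Reads inside origins were accordingly concentrated. Chromosome 4 held 4.75% of the reads inside Bg3 origins of the 6 arms and 3.75% of those inside S2 origins. The 2 origins with most reads on the chromosome (at 612187 and 1284627 in Bg3, and at 612213 and 703193 in S2) made up 55.7% of its reads in Bg3 and 65.1% in S2. Without them the shares of the 6 arms were 2.16% and 1.34%.

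Most of the remaining strong loci in all 5 lists lay in 2 groups. One spans 340581 to 348884 and had 3 such loci, with 4 Bg3 and 3 S2 origins. Its strongest, at 340581 to 342238, reached 4658 reads per kb in Bg3 and 19143.8 in S2. The locus at 342441 to 348150, listed as 2 origins in Bg3 and 1 in S2, reached 3551 and 9179, and that at 348198 to 348884 had 4227 and 6659. All 3 S2 origins and all 4 Bg3 origins of the group were above the 90th percentile.

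The second group covered 45.6 kb near the right end, from 1278321 to 1323870, with 7 loci in all 5 lists and, within the span, 9 Bg3 and 7 S2 origins. It held 25.2% of the Bg3 and 20.9% of the S2 reads on the chromosome. The leading loci were at 1280456 to 1281834 (14224.5 reads per kb in Bg3 and 17827.5 in S2), 1284627 to 1293600 (14863.2 and 16247.8), 1278321 to 1278807 (9231 and 16917.6) and 1282038 to 1283457 (8482 and 9632). Every origin of the group ranked above the 96th percentile in Bg3 and above the 92nd in S2. The widest origins of 4 lists were here, at the locus from 1284627: 7224 bp in Bg3, 7975 bp in S2, 6812 bp in fraction 4 and 5738 bp in fraction 5. Between the 2 groups lay the locus at 1020523 to 1021570, with 12750.6 reads per kb in Bg3 and 12053.3 in S2. The other 10 loci in all 5 lists had S2 strengths of 1384 to 6422 reads per kb.

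Strength ranks were spread unevenly. In Bg3, 33 of the 106 origins were in the strongest 20% of the list and 28 in the weakest, with 14, 14 and 17 in between from weak to strong. In S2, 20 of the 43 were in the strongest 20% and 5 in the weakest. The median rank was the 54.5th percentile in Bg3 (interval 40.9 to 72.6) and the 76.7th in S2 (45.4 to 93.7). Both intervals included the middle of the list. In the top 10% of their list were 25 Bg3 origins (23.6%, 15.9 to 32.8) and 17 S2 origins (39.5%, 25.0 to 55.6), against 9.79% and 9.81% of the origins of the other arms, where X had the highest shares (21.4% and 17.4%).

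Shared origins had the higher median strength in both lines. Among Bg3 origins the 31 shared ones had a median of 4126 reads per kb and the 75 unshared ones of 2157, or the 94.4th and 40.9th percentile. On the other arms the same medians stood at the 57.3rd and 44.6th percentile. In S2 the medians were 2943 reads per kb for the 32 shared and 1511 for the 11 unshared origins (91.4th and 45.4th percentile), against 63.9 and 41.8 on the other arms. Shared origins were also wider, with medians of 1235 against 421 bp in Bg3 and 935.5 against 586 bp in S2, and wider regions overlap more easily. Among S2 origins, those in all 3 fractions had a median of 6174 reads per kb (n = 23) and those in none 1433 (n = 8). These were the 96.2nd and 34.9th percentile. On the other arms the same medians were 2037 and 1423 reads per kb, or the 79.1st and 33.5th percentile.

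Most Bg3 origins missing from S2 did not lie close to an S2 origin. Their distance to the nearest S2 origin had a median of 16.2 kb (quartiles 7.05 and 25.3 kb), and 7 of the 75 lay within 1 kb. For the 11 S2 origins missing from Bg3 the median was 1.39 kb, and 5 lay within 1 kb. Such distances also depend on how dense the other list is, here 31.9 origins per Mb in S2 and 78.6 in Bg3. They were not computed for the other arms. The strongest locus held by Bg3 alone was a 421 bp origin at 1189131 to 1189551, with 11185.7 reads per kb (98.9th percentile), 88279 bp from the nearest S2 origin. The next was the 4086 bp origin at 1300658 to 1304743 (5426 reads per kb), which lay 28 bp from an S2 origin.

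Loci held by Bg3 alone came in runs along the chromosome, as they did on other arms. Run length depends on the number of loci (146 here, 1270 to 2961 on the other arms). It also depends on the Bg3-only share (50% here, 19.6% to 33.5% there), and the lengths were not adjusted for either. The longest run had 10 in a row, against 6 (2R) to 11 (X) elsewhere, and lay from 203984 to 324448, with strengths of 1560 to 2455 reads per kb. The next had 9, from 40062 to 74604, and 3 runs had 7. In the 172 kb from 168430 to 340580 none of the 4 lists from S2 cells held a region, while Bg3 held 10 origins. In the 161 kb from 1061671 to 1222576 Bg3 held 7. There were 18 stretches of at least 20 kb without a region in any S2-cell list, 1058 kb in all. They made up 78.5% of the chromosome and contained 68 of the 106 Bg3 origins (64.2%), fewer than their length share. On X such stretches made up 79.9% of the length and held 39.6% of Bg3 origins, and on the other 4 arms 43.2% to 56.0% and 17.8% to 25.3%. The median Bg3 rank in the longest of them was the 30.1st percentile, while that in the stretch from 1061671 was the 63.4th. Stretches without a region in any of the 5 lists were shorter, the 3 longest being 109.5 kb from 1061671, 63.9 kb from 247228 and 52.3 kb from 752873.

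Where 1 origin of each line overlapped 1 of the other and no more, most pairs had similar ranks. There were 24 such pairs, and their centres lay a median of 92.75 bp apart (97 bp on the other arms). Ranks in Bg3 and S2 had a Spearman correlation of 0.903 over the 24 pairs, which are places on 1 chromosome and not replicates, and most of which lay near the top of both lists. The value was 0.362 over 2307 pairs on the other arms, and 0.300 to 0.558 on single arms. Bg3 ranked the origin higher in 13 pairs and S2 in 11. The ratio of Bg3 to S2 strength had a median of 0.719 relative to that on the other arms (quartiles 0.571 and 0.913), where single arms ranged from 0.942 (2L) to 1.08 (3L). This difference between chromosome 4 and the other arms was not tested. Similar ranks did not always mean similar strengths. Among the 24 pairs the relative ratio was lowest at 340600 to 341996 (0.179), where the Bg3 rank minus the S2 rank was only -3.32. At 1278349 to 1278807 it was 0.401, with a rank difference of -0.610. The highest ratio was 1.79, at 410987 to 412083, where the rank difference was 69.5.

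A few matched pairs differed widely in rank. Bg3 ranked higher at 410987 to 412083 (89.5th percentile in Bg3 and 20.04th in S2), at 498157 to 498752 (91.0 and 63.2) and at 35460 to 39961 (71.6 and 53.3). S2 ranked higher at 953110 to 954705 (12.6 in Bg3 and 83.05 in S2), 946609 to 947294 (50.6 and 83.5) and 678489 to 679078 (18.5 and 36.8). Bg3 origins of the pairs were as wide as their S2 partners, with a median width ratio of 1.02, against 0.784 on the other arms.

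**Figure D4:**
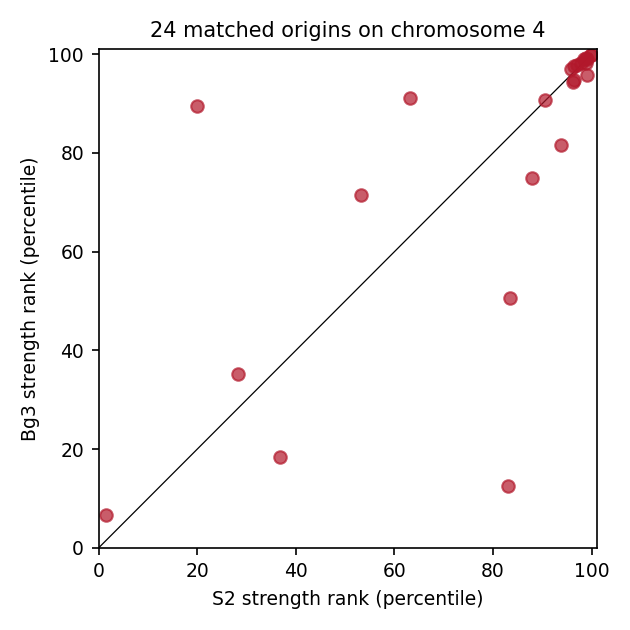
Strength rank in Bg3 (vertical axis, percentile) against that in S2 (horizontal axis, percentile) for the 24 singly matched origins on chromosome 4, with the line of equal rank. Most points crowd the upper right corner, and the origins at 410987 and 953110 lie far from the line.

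The fraction lists held a repeated pattern that neither pooled list had. The last pooled origins ended at 1323870, and beyond them fractions 4, 5 and 6 had 10, 9 and 13 regions in the remaining 24.5 kb. These joined into 8 loci, each in all 3 fractions: 4 at 1329268 to 1330075, 1330082 to 1331131, 1331995 to 1334642 and 1334836 to 1335421, and 4 at 1342253 to 1343040, 1343064 to 1344123, 1344972 to 1347634 and 1347818 to 1348413. As joined loci, the second set resembled the first at an offset of 12985, 12982, 12977 and 12982 bp. Its widths were 788, 1060, 2663 and 596 bp, against 808, 1050, 2648 and 586 bp. Within single lists the match was partial. At an offset of 12982 bp, 4 of 5, 3 of 4 and 5 of 7 first-set regions had a copy within 50 bp in fractions 4, 5 and 6. A search of the 6 arms for 4 loci in a row that recur within 1 Mb, with starts within 50 bp and widths within 10%, found this 1 pair of runs and none on the other arms. The sequence there was not examined, and the sources used here do not say how reads matching several places were treated, so the part of either in the pattern was not tested.

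**Figure D5:**
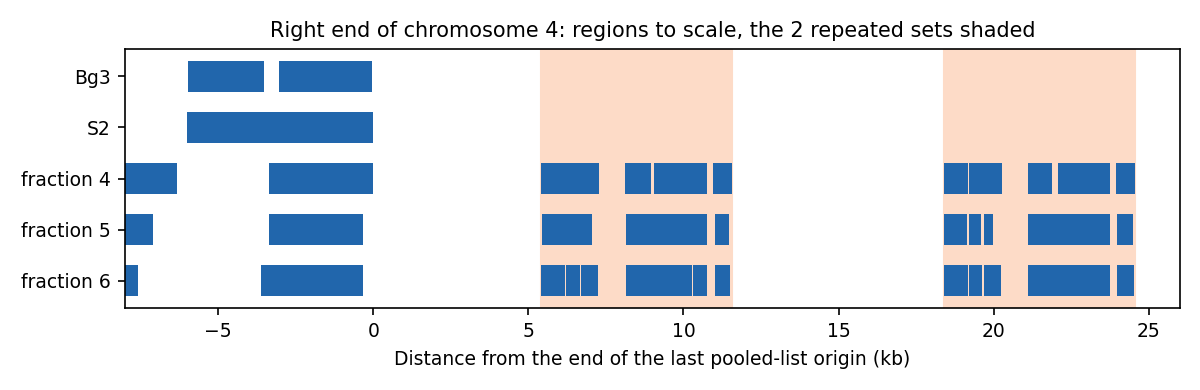
Regions at the right end of chromosome 4 drawn to scale, by distance from the end of the last origin in a pooled list (kb), with 1 row per list. Shading marks the 2 sets of 4 loci, which lie about 13 kb apart, hold regions in all 3 fractions and hold none in Bg3 or S2.

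These 8 loci were part of the 31 held by fractions alone and made up 8 of the 15 that all 3 fractions held. The other fraction-only loci lay elsewhere, the widest of them at 1313657 to 1317525, with a region of up to 3131 bp. Leaving out the regions beyond 1323870 was likewise tried after the data had been seen. The ratio to S2 on chromosome 4 was then 1.95 for fraction 4 (adjusted p = 0.0108, exact binomial test). It no longer passed for fraction 5 (1.402, adjusted p = 0.184) or fraction 6 (1.44, adjusted p = 0.131) by that exact test. At the left end, the region from 6329 to 12361, the widest of fraction 6 (6033 bp), overlapped regions of both other fractions and a Bg3 origin but lay 23172 bp from the nearest S2 origin.

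Spacing was uneven in every list. The median gap between neighbouring regions was 5.20 kb in Bg3, 6.10 kb in S2 and 5.16, 3.66 and 1.99 kb in fractions 4, 5 and 6, against 7.91, 9.89, 14.0, 10.2 and 11.5 kb on the other arms. The longest gap was 116.6 kb in Bg3 and 254.8 kb in S2, where the gap from 1023058 to 1277830 held 14 Bg3 origins. Within 5 kb of another region lay 72.6% of Bg3 origins (interval 63.1 to 80.9), 62.8% of S2 origins (46.7 to 77.0) and 66.1%, 78.0% and 88.1% of regions in fractions 4, 5 and 6. The other arms had 59.0%, 51.1%, 45.4%, 54.6% and 52.6% in the same order. Regions within 1 kb of each other contributed much of this, as given with the processing alternatives.

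Median widths on chromosome 4 were above those of the other 5 arms combined in each list, though in fraction 6 they were below those of 2L (599 bp) and 3R (576 bp). Median width was 537.5 bp in Bg3 (432 on the other arms), 765 bp in S2 (600), and 819.5, 600 and 572 bp in fractions 4, 5 and 6 (624, 516 and 556). Origins of at least 4 kb numbered 4 in Bg3 (3.77%) and 5 in S2 (11.6%), against 2.58% and 3.04% on the other arms. X alone had 4.08% in Bg3, above chromosome 4, and 6.06% in S2. The narrowest region was a 133 bp Bg3 origin. The differences in width and spacing between arms were not tested.

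The Bg3 values allowed 1 look inside the pooled list. For 100 of the 106 Bg3 origins, strength times width could be written in exactly 1 way as a weighted mean of 2 whole numbers (weights 0.473 and 0.527). Origins with 20000 reads or more, the 2 strongest among them, were not tried. The origin at 1280456 to 1281834, with 19615.6 reads, lay under that limit but had no single solution. No source used here says whether the 2 numbers stem from the 2 replicates. On chromosome 4 the first number was lower relative to the second, with a median ratio of 0.755 (quartiles 0.698 and 0.880), against 0.904 on the other arms, where the medians of single arms lay between 0.894 (2L) and 0.920 (3R). The median ratio was 0.740 for the 74 origins not shared with S2 and 0.879 for the 26 shared ones, against 0.898 and 0.915 on the other arms. The 2 numbers still ranked the origins alike (Spearman correlation 0.974 over 100 origins). None of the 100 differed by more than 2-fold. On the other arms 19 of 6457 (0.294%) did, which is too rare for a difference to show among 100. By the first number alone, an alternative added after the data had been seen, the median rank of Bg3 origins on chromosome 4 was the 35.6th percentile, and by the second it was the 65.7th.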

How the data were processed

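The series holds short-nascent-strand sequencing of 2 Drosophila lines in 9 samples. Per the submitters' processing notes, the authors used Bowtie2 2.2.0, SAMtools 0.1.19 and MACS 1.4.1 with build dm3. The sources used here give no settings or filters. The deposited efficiency is a signal in reads per kb, as its values show: times width it gave whole numbers (within 0.001) for 100% of S2 origins. Library totals were not at hand, so depth is unknown, and the fraction lists carry no depth at all.

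Regions on chromosome 4 were taken from all 5 lists, and the members and lists were chosen with earlier results of these data known. Origins were shared at 1 bp of overlap, and loci were regions joined by overlap across lists. Region numbers were compared by two-sided exact binomial tests over 6 arms, and over windows of all arms with at least 5 origins (centres assigned), with Benjamini-Hochberg adjustment at 0.05. The window test and the recovery of the 2 Bg3 numbers were tested on simulated data. The simulated pairs of numbers were far smaller than those of the stronger origins, for which the recovery was not tested. Share intervals are exact (Clopper-Pearson, 95%). For Bg3 values under 20000 reads the 2 whole numbers were sought from the values, with 0.5 added before taking ratios. Python 3.11.15, numpy 2.4.6, pandas 2.3.3 and scipy 1.17.1 were used. Named regions followed a rule: the 5 strongest of Bg3 and of S2, the loci in all 5 lists, the strongest or widest of each pattern, the widest regions, the densest windows, the longest empty stretches and the extreme matched pairs. The runs of Bg3-only loci, the right end and the 2 numbers were added after their values were seen.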

Additional observations from a re-analysis of the deposited data

How the results depend on the processing

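No paired analysis was possible because the lists carry no column per replicate. Each result was recomputed under its alternatives, which gave 71 values. Of these, 44 kept their call, or lay within the interval or 1.5 times the count, 18 moved out of the interval, and 9 lost a call (6 ratios and 3 window counts). No called ratio changed direction. With 50% overlap of both regions, 20.8% of Bg3 origins were found in S2, 51.2% of S2 origins in Bg3 and 42.4% of fraction 5 regions in S2. A gap of up to 500 bp raised the fraction 4 share to 60.7%, and keeping the origins above the median strength of each list raised the Bg3 share to 41.1%. The Bg3 ratio to S2 on chromosome 4 passed in every setting with the S2 pooled list (1.93 to 2.54, adjusted p up to 0.00645, exact binomial test). It failed against fraction 4 (1.01) and fraction 6 (1.29), both counted with the regions beyond 1323870. These settings were added, like the next 2, after seeing the data. The fraction ratios failed for fractions 5 and 6 without the right end (1.402 and 1.44) and after merging within 1 kb (1.74 and 1.61). The count of chromosome 4 windows that passed was 1 and became 0 among origins above the median strength and in 100 kb and 250 kb windows. The share with a neighbour followed the distance. It was 57.5%, 46.4%, 64.4% and 74.6% at 2 kb in Bg3 and fractions 4, 5 and 6, and 84.9%, 79.1% and 80.4% at 10 kb in Bg3, S2 and fraction 4. After merging it was 44.7% in Bg3, 23.3% in S2 and 38.5%, 50% and 51.5% in the fractions. The median Bg3 rank was 35.6 from the first number. The causes were not tested. Without depth per library, a missing region cannot be told from one below detection.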
